A study of Rattus norvegicus with 48 samples.

Results

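The F2 comparison of the organochlorine line with the control line was held in 2 deposited lists, one of hypermethylated and one of hypomethylated cytosines. Its members were all cytosines of those lists, 1219 of the 4937 entries in the 6 lists of the series, against 1721 for F1 and 1997 for F3. Cytosines of F2 at most 1000 bp apart were counted as one locus, which gave 831 loci. The choice used the lists as they stood, and the lists themselves hold only cytosines that differed by at least 20 percentage points at a false discovery rate under 1%.

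The study measured DNA methylation in epididymal sperm of Sprague-Dawley rats. It used reduced representation bisulfite sequencing, in which an enzyme cut enriches CpG-rich fragments and bisulfite then converts cytosines that carry no methyl group. Founder females (F0), 5 weeks old at the start, received by gavage corn oil in the control line, or in the exposed line an Arctic mixture of persistent organic pollutants at 500 µg per kg body weight, called organochlorines in the labels. Dosing was given 3 times a week for 5 weeks and then went on through mating until the litters were born. Males of the descendant generations were killed at 90 days of age and sperm diffused from the right caudal epididymis. The labels give 6 control and 6 organochlorine samples in each of 4 numbered generations, whereas the lists are named F1, F2 and F3, so the F2 lists were not tied to single samples. How the animals of one group were related by litter, how F2 was bred and how pure the sperm were is not given in the sources used here, and lists of differences hold no levels against which sperm could be checked.

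In mammals, methyl groups sit mainly on cytosines followed by guanine (CpG), and a CpG reads the same on both strands, so that both of its cytosines can carry the mark. The sperm genome is heavily methylated outside CpG-rich promoters, and its pattern is erased and rewritten while germ cells form in the fetus. A fetus exposed in the uterus already carries the germ cells of the next generation. For F2, dosing of the founders thus included the time when the germ cells of its F1 parent formed. It also covered the weeks before mating.

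Every value below is a difference between group methylation levels in percentage points, as given by the authors, with no spread between animals. Levels in single samples and coverage were not analysed here, so depth is unknown. Which group was subtracted from which is not stated, so the directions keep the names of the lists. The number of cytosines tested for F2 is not given, so no share of all tested sites can be set beside the counts. Positions are on Rnor_5.0, and no annotation or sequence of that build was used here, so loci are named by position alone.

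F2 differences were found on all of chromosomes 1 to 20 and in both directions, and no entry of the lists used here was on X or Y. The hypermethylated list held 663 cytosines and the hypomethylated list 556, with 645 on the plus strand and 574 on the minus strand in all. Absolute differences ran from 20.0 to 83.7 points with a median of 26.5. Many lay close to the lists' minimum: 507 cytosines (41.6%) were below 25 points, and 70 (5.74%) were at 50 points or more. The smallest differences listed were 20.0067, 20.0145 and 20.0183 points, and nothing below 20 was listed.

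The size profiles of the 2 lists, described here without a test, were unlike. Of the hypermethylated cytosines 46.2% were between 20 and 25 points, against 36.2% of the hypomethylated ones. At 40 points or more the order was the other way, with 83 hypermethylated cytosines (12.5% of their list) and 104 hypomethylated ones (18.7%). At 50 points or more there were 29 and 41. The p-value was listed at 0 for 595 F2 cytosines, whose median absolute difference was 33.6 points, against 23.5 points for the other 624. All 70 cytosines at 50 points or more were among those listed at 0, so p did not rank the strongest sites.

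**Figure D1:**
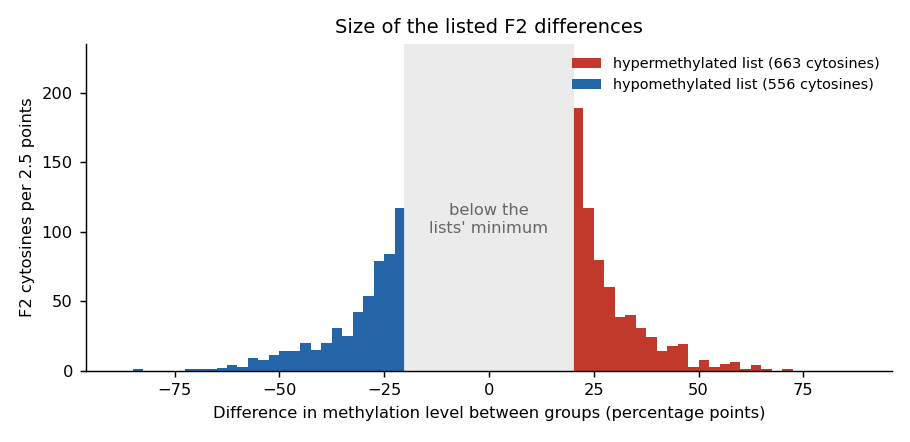
Number of F2 cytosines (vertical axis) by difference in methylation level between groups in percentage points (horizontal axis, bins of 2.5 points), in the hypermethylated list (red, 663) and the hypomethylated list (blue, 556). The grey band marks differences below 20 points, which the lists do not hold; counts fall away from it on both sides, faster on the hypermethylated side.

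Merged into loci, F2 had 460 hypermethylated and 371 hypomethylated loci by mean difference, a hypermethylated share of 55.4% (95% exact Clopper-Pearson interval 51.9% to 58.8%, which covers counting error only). The share was 52.7% with a minimum of 25 points and 49.3% with 30, so the excess did not hold away from the lists' minimum. Single cytosines made up 631 loci. The other 200 loci held 588 cytosines, or 48.2% of all F2 cytosines. Pairs were commonest, at 143 loci with a median span of 3 bp. There were 35 loci with 3 or 4 cytosines and 22 runs with 5 or more, and these runs alone held 185 cytosines (15.2%). All but 3 of the 200 loci spanned 262 bp or less.

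F2 loci held more than 1 listed cytosine more often than F1 loci did. This was so for 200 of 831 F2 loci (24.1%, exact interval 21.2% to 27.1%) and 227 of 1283 F1 loci (17.7%, 15.6% to 19.9%), a difference of 6.37 points by two-sided Fisher's exact test (Benjamini-Hochberg adjusted p = 0.00093 over 2 comparisons). Among F3 loci the share was 339 of 1392 (24.4%, 22.1% to 26.7%), and F2 minus F3 was -0.29 points (Fisher's exact test, adjusted p = 0.92). These tests count loci of 1 group contrast per generation and carry no spread between animals. The sets compared also overlap, since 258 F2 loci held a cytosine listed in F1 and 280 one listed in F3. Such loci entered both sides of a test that takes its sets as independent, so the p-values are rough. With a minimum of 25 points the F2 minus F1 difference was 2.48 points (Fisher's exact test, adjusted p = 0.51), at 30 points it was -0.58, and with the strands of a CpG counted once F2 minus F3 became 3.31 points (adjusted p = 0.029).

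The strongest hypermethylated loci of F2 were all single cytosines. At position 45902208 of chromosome 16 the authors' deposited table gave 71.0 points, the largest hypermethylated F2 value. That cytosine was listed at 32.9 points in F1 and 31.1 in F3 by the authors' deposited table. Chromosome 10, position 14760342, followed with 67.2 points in F2 and 51.0 in F3 according to the authors' deposited table, and was not listed in F1. Both cytosines thus had one direction wherever they were listed.

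A pair of leading cytosines lay on chromosome 12, about as strong as each other. In the authors' deposited table position 15277793 stood at 64.3 points in F2, 27.6 in F1 and 22.0 in F3. Position 15419713 stood at 64.2 points in F2 and 32.7 in F3 by the authors' deposited table. On chromosome 11 position 28401647 reached 63.9 points, with 43.9 in F1 and 45.8 in F3, according to the authors' deposited table. In each of them F2 had the widest difference.

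Chromosome 20 supplied 3 of the 10 strongest hypermethylated loci. For position 11204695 the authors' deposited table gave 64.9 points in F2 and 29.6 in F3. For position 16697222 it was 60.9 points in F2 and 25.1 in F3 by the authors' deposited table. Position 13423409 stood at 59.4 points, with 24.3 in F1 and 62.0 in F3, according to the authors' deposited table, so here F3 was slightly wider than F2. The list of 10 was completed by chromosome 17, position 91272438, at 59.5 points in F2 and 70.6 in F1 by the authors' deposited table. Chromosome 2, position 138907226, at 59.6 points according to the authors' deposited table, was the only one of the 10 listed in F2 alone. Of all 831 F2 loci 411 (49.5%) were listed in F2 alone. Those loci had smaller F2 differences in the median, so choosing the largest values favours loci listed again.

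Among the 10 strongest hypomethylated loci 7 held more than 1 listed cytosine. On chromosome 11, positions 29043737 and 29043818, both on the minus strand, stood at -50.8 and -83.7 points by the authors' deposited table, the second being the widest F2 difference in either direction. That second cytosine had -44.9 points in F1, against -41.5 in F3, according to the authors' deposited table. On chromosome 17 both strands of one CpG, positions 15275237 and 15275238, stood at -70.0 and -62.9 points in F2 by the authors' deposited table. Only the minus strand of this CpG was listed elsewhere, at -23.1 points in F1 and -22.9 in F3 according to the authors' deposited table.

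Chromosome 12 held 3 of the strongest hypomethylated loci. At the CpG of positions 39426528 and 39426529 the F2 strands were at -61.9 and -69.1 points by the authors' deposited table. The mean over both strands was -65.5 points in F2, -40.3 in F1 and -40.6 in F3. At positions 38805252 and 38805253 the F2 strands were at -62.6 and -65.8 points by the authors' deposited table, with strand means of -43.0 in F1 and -32.5 in F3. The third, position 30670601, had -62.0 points in F2, against -46.7 in F3, by the authors' deposited table. All 3 kept their direction in every list that held them.

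Of these 10 loci 3 had no entry in the other lists, against 411 of all 831 F2 loci (49.5%). On chromosome 7 both strands of 2 CpGs, from position 77851205 to 77851233, ran from -62.1 to -54.9 points according to the authors' deposited table. On chromosome 5 positions 147778837 and 147778860 were at -58.6 and -58.8 points by the authors' deposited table. Position 88511552 of the same chromosome stood at -57.4 points according to the authors' deposited table. The remaining 2 were chromosome 17, position 15831885, at -59.9 points in F2 and -26.9 in F3, and a chromosome 4 locus described with the reversals, all by the authors' deposited table. Of the 22 values that the 20 leading cytosines had in F1 or F3, 20 were smaller in size than in F2, an order that choosing the largest F2 values favours.

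Runs of listed cytosines showed how even a difference could be over a short stretch. Of the 22 runs with 5 or more cytosines 11 were hypermethylated and 11 hypomethylated, and no run mixed directions. The longest, chr6:144720006-144720227, had 28 hypomethylated cytosines, all on the plus strand, between -30.2 and -23.0 points with a mean of -27.2. F1 listed 29 cytosines in this stretch, 27 of them shared with F2, between -47.2 and -36.9 points, and F3 listed none. The 2 lists did not overlap in value: each F1 cytosine in the run lay further from 0 than each F2 cytosine.

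The cytosines of this run were regularly spaced. Measured from the first, listed positions lay at 19, 21 and 23 bp, at 37, 39 and 41 bp, at 55, 57 and 59 bp and at 73, 75 and 77 bp, so the same group of 3 returned every 18 bp. Of the 28 cytosines, 20 had another listed cytosine exactly 18 bp further, and 26 had one 18 bp before or further. The pattern was chosen after the values were seen, and the sequence there was not analysed.

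A similar regularity, with another step, was present in a run on the minus strand of chromosome 1. This run, chr1:26238524-26238659, held 13 hypomethylated cytosines between -29.8 and -24.4 points with a mean of -27.7. Its commonest distance between listed cytosines was 16 bp, found for 10 pairs. All 13 cytosines were also listed in F3, between -35.0 and -30.7 points with a mean of -32.6, and none in F1. F3 was thus further from 0 than F2 throughout this run. In the other 20 runs no distance was shared by more than 2 pairs of cytosines on one strand.

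The third long run showed strands that differed. At chr4:242710623-242710711 the 13 F2 cytosines were all hypermethylated, but the 6 on the plus strand lay between 43.4 and 46.7 points and the 7 on the minus strand between 20.1 and 21.9. All 6 plus-strand cytosines faced a listed minus-strand cytosine of the same CpG, with gaps of 21.6 to 26.1 points. F1 listed the same 6 plus-strand cytosines, between 26.7 and 31.5 points, and none of the minus strand. F3 listed neither strand. The minus strand of F2 thus lay just above the lists' minimum throughout.

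The fourth run was the most spread out. It covered 1405 bp, chr16:8599531-8600935, with 13 hypermethylated cytosines between 20.4 and 27.0 points and a mean of 22.7, on both strands. The other lists held only 1 of its cytosines, in F1 at 22.3 points. A shorter run on chromosome 6, chr6:106124196-106124327, was alike in size, with 10 hypermethylated cytosines between 20.5 and 24.5 points and 1 of them in F1 at 21.9. Both runs lay close to the lists' minimum.

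**Figure D2:**
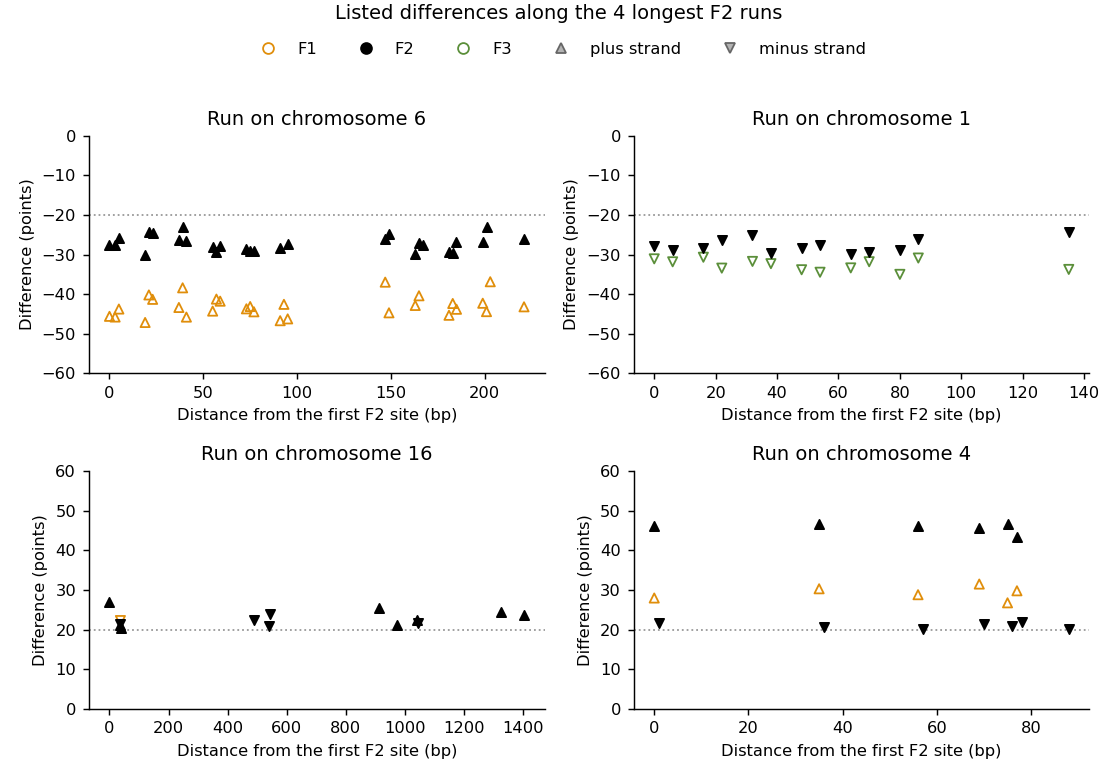
Listed differences in percentage points (vertical axis) against distance in bp from the first F2 cytosine (horizontal axis) in the 4 F2 runs with most cytosines; filled black symbols are F2, open orange F1 and open green F3, upward triangles the plus and downward triangles the minus strand, and the dotted line is the lists' minimum of 20 points. On chromosome 6 the F1 points lie further from 0 than the F2 points, on chromosome 1 the F3 points do, and on chromosome 4 the F2 plus strand lies near 46 points while the minus strand lies near 21.

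Of the 22 runs, 11 had no cytosine listed within their bounds in F1 or F3, close to the share of all F2 loci that were listed in F2 alone (411 of 831, 49.5%). They include chr19:60406112-60406230 with 8 hypermethylated cytosines and a mean of 26.4 points, and chr1:227997519-227997691 with 7 hypomethylated cytosines and a mean of -25.5. Another was chr20:15086024-15086229, with 7 hypomethylated cytosines and a mean of -27.1 points. On chromosome 4, chr4:4099692-4099793 held 6 hypermethylated cytosines, all on the minus strand, with a mean of 26.2. On chromosome 5, chr5:147737111-147737241 held 6 hypomethylated cytosines, all on the plus strand, with a mean of -24.2. A run of 6 hypermethylated cytosines on chromosome 7, chr7:41522056-41522191, had a mean of 21.1 and was tied in number with the last runs named by the rule. The means of the first 5 of these runs lay between 24 and 28 points from 0, and that of the chromosome 7 run lay closer. Over all 22 runs the absolute mean had quartiles of 23.8 and 27.6 points, so this band was not particular to them.

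Other runs were listed more fully elsewhere. At chr13:57960469-57960567 the 8 F2 cytosines averaged -29.5 points, 4 cytosines in F1 averaged -25.7 and 12 in F3 averaged -42.5. At chr5:147683213-147683320 the 8 F2 cytosines averaged -36.9 points and 7 in F3 averaged -24.7, with none in F1. At chr16:72824667-72824769 the 8 F2 cytosines averaged 28.6 points and 7 in F1 averaged 31.1, with none in F3. In these 3 runs the sign was the same in every list. Within the chromosome 13 run the CpGs starting at offsets of 61 and 97 bp had the widest F2 differences, at -40.2 and -39.8 points on their plus strands according to the authors' deposited table. The same cytosines stood widest in F1, at -29.1 and -28.7 points, and in F3, at -59.4 and -58.1, by the authors' deposited table. In the chromosome 16 run the 3 CpGs listed on both strands in F1 and F2 were larger on the plus strand in both lists.

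A pair of further runs lay on chromosomes 16 and 19. At chr16:14737135-14737216 the 6 hypermethylated cytosines averaged 32.8 points, and their strands differed again, with 20.7 and 21.0 on the plus strand and 35.8 to 41.2 on the minus strand according to the authors' deposited table. F1 held 2 cytosines there, with a mean of 25.3 points. At chr19:60868079-60868196 the 8 hypomethylated cytosines averaged -25.2 points, and F1 held 1 of them at -20.1. Chromosome 16 carried 5 of the 22 runs, more than any other chromosome, and 48 of all 831 F2 loci (5.78%). Whether its runs were more than its share was not tested, and how many of its cytosines could be called is not known.

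F2 listed both strands of the same CpG 113 times, and all 113 pairs agreed in direction, 59 hypermethylated and 54 hypomethylated. Their cytosines were 18.5% of the F2 lists and lay in 93 loci. The absolute gap between strands had a median of 5.20 points and quartiles of 2.12 and 8.25, and 53 pairs differed by under 5 points. The plus strand had the larger difference in 65 pairs. Since both strands had to pass 20 points to be listed as a pair, small or absent differences on one strand are not among these pairs.

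Pearson's r between the strands was higher in hypomethylated than in hypermethylated pairs, a difference that was not tested. Across pairs it was 0.87 in 54 hypomethylated pairs and 0.39 in 59 hypermethylated pairs, given as a description because pairs share loci and samples. Without the 6 pairs of the chromosome 4 run, r in the other 53 hypermethylated pairs was 0.61. A gap above 20 points occurred in 7 pairs, the 6 of that run and 1 at positions 157706837 and 157706838 of chromosome 4, which stood at 58.0 and 30.8 points by the authors' deposited table. The 7 pairs were all hypermethylated, all on chromosome 4, and all larger on the plus strand.

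**Figure D3:**
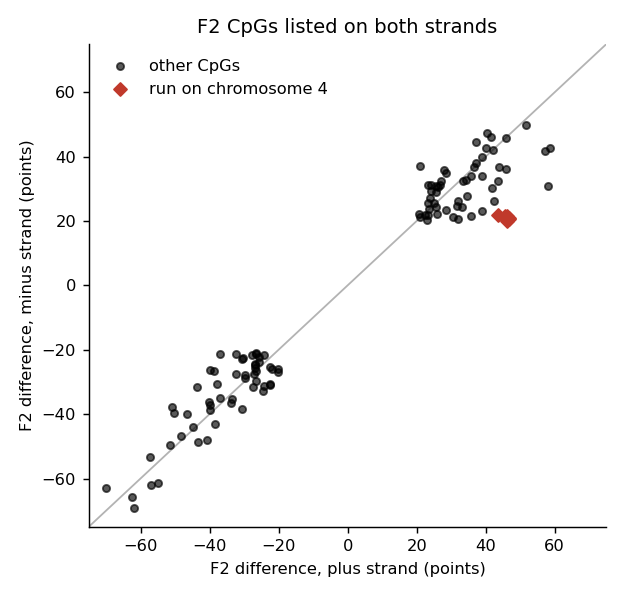
F2 difference in percentage points on the plus strand (horizontal axis) and on the minus strand (vertical axis) of each of the 113 CpGs listed on both strands; the line marks equal values and red diamonds are the 6 CpGs of the chromosome 4 run. All points lie in the 2 quadrants of equal direction, and the red diamonds lie apart from the line, at 43.4 to 46.7 points on one strand and 20.1 to 21.9 on the other.

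A small number of loci carried both directions within a short distance. Of 388 pairs of neighbouring F2 cytosines within loci, 370 had the same direction and 18 the opposite, and these 18 lay in 16 loci, 8% of the loci with more than 1 cytosine. The distance between opposite neighbours was 9 to 231 bp with a median of 45. In 14 of the 16 loci all cytosines were on one strand, against 103 of all 200 loci with more than 1 cytosine. Of those 200 loci 93 held both strands of a CpG, always in one direction, so few loci without such a pair had cytosines on both strands. All 115 neighbours at 1 bp had one direction, and among those 2 to 10 bp apart 75 had one direction and 1 opposite directions.

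That closest case was on the minus strand of chromosome 17. There positions 17971139 and 17971148, 9 bp apart, stood at 33.9 and -52.3 points according to the authors' deposited table. The second was hypomethylated in all lists, at -21.0 points in F1 and -55.4 in F3 by the authors' deposited table. The first was in the F2 list alone. So 2 neighbouring cytosines of one strand differed in opposite directions in F2.

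Opposite directions were also found again in another list. On chromosome 14, positions 78138497 and 78138546 of the minus strand were at -37.3 and 28.6 points in F2 according to the authors' deposited table. In F1 they were at -46.9 and 36.0 points by the authors' deposited table, the same arrangement, and only the first was listed in F3, at -40.2. On chromosome 2, positions 175599636 and 175599710 of the plus strand were at 26.4 and -45.0 points in F2 according to the authors' deposited table. The first of them was listed in F3 at 20.5 points and the second in F1 at -36.0 points by the authors' deposited table, each in its F2 direction. Another case was on chromosome 17, with position 11662272 at 20.5 points in F2 and 20.1 in F3, and position 11662289 at -55.8 in F2, -60.4 in F1 and -24.1 in F3 according to the authors' deposited table.

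Only 1 locus with both directions had 4 cytosines. At chr14:8386998-8387093, all on the plus strand, the order was -28.8, -28.1, 23.4 and -33.0 points by the authors' deposited table, so a single hypermethylated cytosine stood between hypomethylated ones. The widest gap between opposite neighbours was on chromosome 17, where positions 15227589 and 15227820 were at -50.5 and 24.5 points according to the authors' deposited table. Neither locus was listed in F1 or F3.

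F2 loci were spread unevenly over the chromosomes, from 93 on chromosome 1 to 14 on chromosome 18. How many cytosines could be called on each chromosome is not known, so no rate was calculated. The hypermethylated share was highest on chromosome 13, with 19 of 26 loci (73.1%, exact interval 52.2% to 88.4%), and lowest on chromosome 15, with 6 of 18 (33.3%, 13.3% to 59.0%). Those intervals overlap, and single chromosomes were not tested. The median absolute mean difference of a locus was between 24.7 and 29.4 points on every chromosome except chromosome 20, where it was 33.1.

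**Figure D4:**
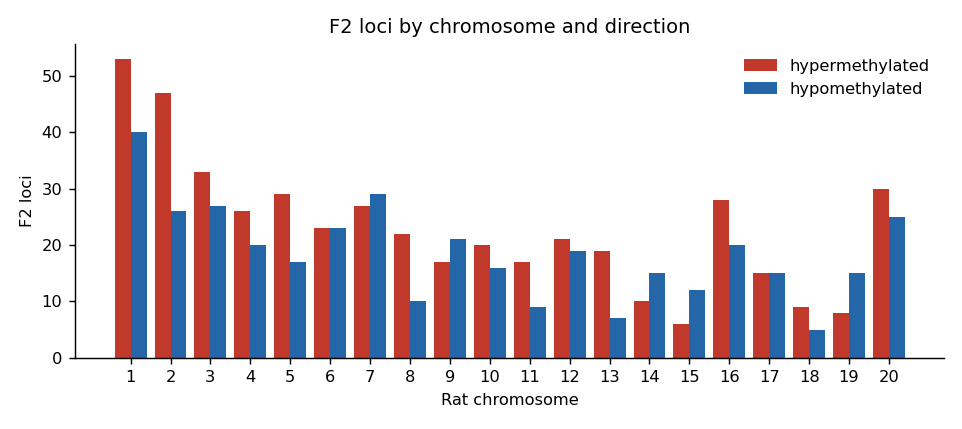
Number of F2 loci (vertical axis) on each rat chromosome (horizontal axis), hypermethylated in red and hypomethylated in blue. Chromosome 1 has most loci, 53 and 40, and chromosome 18 fewest, 9 and 5; hypomethylated loci are the more numerous on chromosomes 7, 9, 14, 15 and 19.

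Chromosome 20 also held the neighbourhood with most F2 loci. When loci at most 1 Mb apart were joined, the 831 loci formed 441 neighbourhoods, of which 272 held a single locus and 7 held 10 or more. The largest ran over 5.37 Mb, from position 8280385 to 13649915 of chromosome 20, and held 33 loci, 60% of those on the chromosome. Both directions were mixed along it, with 17 hypermethylated and 16 hypomethylated loci, and 18 of its 32 neighbouring pairs of loci had opposite directions. Absolute mean differences ran from 21.3 to 64.9 points with a median of 33.1, against 26.2 in the other 798 F2 loci. The neighbourhood was picked for its number of loci, so its count is a description.

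Of these 33 loci 22 were listed again, against 420 of all 831 F2 loci (50.5%), a difference that was not tested. The neighbourhood shared 15 loci with F1, all of the same direction, and 13 with F3, of which 12 had the same direction. Over all F2 loci 241 of 258 shared with F1 (93.4%) and 245 of 280 shared with F3 (87.5%) had the same direction, so the neighbourhood was close to the general share. The F1 lists held 29 loci in this interval, 22 of them hypermethylated, and the F3 lists 31, of which 23 were hypermethylated, within bounds set by the F2 loci. The hypermethylated share over all F1 or F3 loci is not given here, so no local excess can be read from these counts. Position 12896355 was at -26.6, -45.2 and -60.1 points in F1, F2 and F3 by the authors' deposited table. Position 13078346 was at 23.0, 36.1 and 47.5 points according to the authors' deposited table. Both stood furthest from 0 in F3. The exception in direction, position 9962001, was at -21.6, -29.7 and 21.2 points by the authors' deposited table. These 3 cytosines were chosen after their values were seen. The interval also held the second widest F2 locus, chr20:13647017-13648041, with 3 hypermethylated cytosines between 38.6 and 54.9 points.

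The other 6 neighbourhoods with 10 or more F2 loci lay on either side of the general share of loci listed again. It was 7 of 12 loci on chromosome 9, from position 13121643 to 15417866. On chromosome 1, from position 283081419 to 285833300, and on chromosome 7, from position 75415346 to 80519461, it was 6 of 10. A further neighbourhood of chromosome 20, from position 6230335 to 7222675, had 5 of 10. On chromosome 12, from position 24591380 to 27528263, and on chromosome 7, from position 11110605 to 13591024, it was 3 of 10. Of the 169 neighbourhoods with more than 1 locus, 98 held both directions.

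The F2 loci split almost evenly into those listed again and those of F2 alone. A cytosine of the same position and strand was listed in another generation at 420 loci (50.5%), in F1 only at 140, in F3 only at 162 and in both at 118. The other 411 loci were listed in F2 alone. At 29 of these another cytosine within 1000 bp was listed in F1 or F3, which leaves 382 loci (46.0% of all F2 loci) with nothing listed nearby in either generation. Since every list starts at 20 points, a locus missing from a list may have differed there by less.

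Loci listed again had larger F2 differences than loci of F2 alone. The median absolute mean difference was 24.2 points in loci of F2 alone, 29.0 in loci shared with F1 only, 27.0 in those shared with F3 only and 33.9 in loci listed in all 3 generations. Single cytosines gave the same order, with medians of 24.5 points in F2 alone, 29.2 with F1, 28.3 with F3 and 36.1 in all 3. These medians are descriptions, because every list is cut at 20 points.

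In the full lists, loci of F2 alone were more often hypermethylated than loci listed again. The hypermethylated share was 243 of 411 (59.1%, exact interval 54.2% to 63.9%) in F2 alone and 217 of 420 (51.7%, 46.8% to 56.5%) in loci listed again, a difference of -7.46 points by two-sided Fisher's exact test (unadjusted p = 0.036). The share was 53.6% in loci shared with F1 only, 51.2% with F3 only and 50% in all 3. With a minimum of 25 points the difference was -5.34 (Fisher's exact test, p = 0.25), with 30 points -2.96 (p = 0.66) and at q of at most 1e-5 -4.47 (p = 0.26). The difference therefore did not pass the test once the cytosines nearest the lists' minimum, or those of higher q, were left out. The test also takes linked loci of the F2 contrast as independent and carries no spread between animals, so its p-values are rough.

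Shared loci mostly kept their F2 direction, and the share was 92.9% with F1 and 86.4% with F3. Among loci shared with F1 only it was 130 of 140 (exact interval 87.3% to 96.5%), and among loci shared with F3 only 140 of 162 (80.2% to 91.3%). The difference of 6.44 points did not pass two-sided Fisher's exact test (p = 0.091). With a minimum of 30 points the shares nearly met, at 96.4% of 55 loci for F1 and 95.2% of 62 for F3. Counting each shared cytosine on its own gave 94.1% of 205 and 88.2% of 204, a difference of 5.91 points (Fisher's exact test, p = 0.037), but cytosines of one locus are not independent. Of the 118 loci listed in all 3 generations, 101 had the F2 direction in both other lists and 3 in neither.

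Shared cytosines were about as often larger in F2 as in the other list. Of the 344 cytosines shared with F1, 184 were larger in size in F2, and of the 345 shared with F3, 177 were. The median change in size between lists was 8.76 points against F1 and 7.98 against F3, beside F2 medians of 30.9 and 30.8. Among cytosines of the same direction, Pearson's r between F2 and F1 was 0.22 over 165 hypermethylated and 0.0078 over 160 hypomethylated cytosines, and between F2 and F3 0.20 over 145 and 0.16 over 162. These are descriptions across cytosines that share loci and samples and are all cut at 20 points. Of the 131 cytosines listed in all 3 generations, the largest size was in F2 for 52, in F3 for 45 and in F1 for 34.

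**Figure D5:**
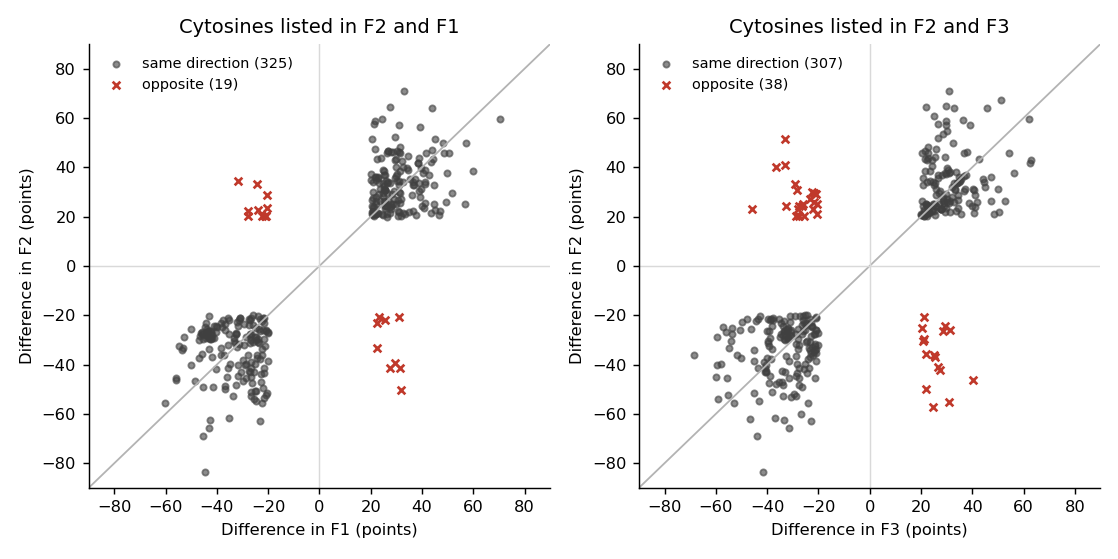
Difference in F2 (vertical axis, percentage points) against the difference of the same cytosine in F1 (left, horizontal axis) or F3 (right, horizontal axis); the line marks equal values, grey circles have the same direction and red crosses opposite directions. With F1, 325 cytosines share their direction and 19 do not, and with F3 307 do and 38 do not.

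The cytosines listed in all 3 generations with the widest F2 differences kept one direction. Besides those already given for chromosomes 11, 12, 16, 17 and 20, they lay on chromosome 7. There position 79814274 stood at 58.6 points, with 21.7 in F1 and 29.6 in F3, according to the authors' deposited table. Position 80519461 stood at 57.4 points, with 21.3 in F1 and 26.7 in F3, by the authors' deposited table. Over all 131 such cytosines 56 were hypermethylated and 58 hypomethylated throughout. F2 was the odd one out in 3, hypermethylated between hypomethylated values, and none had the reverse arrangement.

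Reversals against F2 were found at 49 loci, 17 against F1 and 35 against F3, with 3 against both. By size in F2 the first was a CpG of chromosome 4 whose plus strand, position 22667502, had -57.3 points in F2, against 24.6 in F3, according to the authors' deposited table. Its minus strand, position 22667503, had -53.4 points in F2, against -21.8 in F1, by the authors' deposited table. On chromosome 1, position 80856768 had -55.0 points in F2, against 30.7 in F3, according to the authors' deposited table. Position 136984031 there was at -42.0 points, against 27.5 in F3, by the authors' deposited table. All 3 reversed between F2 and F3, and none was listed with the other direction in F1.

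F1 and F2 kept one direction and F3 the other at several leading reversals. On chromosome 17, position 17819008 was at 20.4, 51.5 and -33.0 points in F1, F2 and F3 according to the authors' deposited table. On chromosome 8, position 99493687 was at -36.8, -49.7 and 22.0 points by the authors' deposited table. On chromosome 4, position 13461000 was at -55.8, -46.1 and 40.2 points according to the authors' deposited table. On chromosome 5, position 33512233 reversed from 40.7 points in F2 to -33.2 in F3 by the authors' deposited table, with no F1 value.

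One run of 5 hypermethylated F2 cytosines, noticed after its values were seen, was listed in all generations and turned over in F3. At chr2:262517518-262517626 the F2 mean was 23.8 points, 4 F1 cytosines averaged 47.2 and 2 F3 cytosines averaged -21.3. Position 262517569 was at 49.4, 25.9 and -21.9 points in F1, F2 and F3 according to the authors' deposited table. Position 262517597 was at 44.6, 24.9 and -20.8 points by the authors' deposited table. F2 thus lay between the other lists at both cytosines.

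Reversals between F1 and F2 were fewer in number, at 17 of 258 shared loci, against 35 of 280 between F2 and F3. Between loci shared with F1 only and with F3 only, the difference in direction did not pass Fisher's exact test (p = 0.091). At the CpG of positions 58070933 and 58070934 of chromosome 2 the strand mean was 30.7 points in F1 and -45.0 in F2. At position 158863933 of chromosome 3 the authors' deposited table gave 27.5 points in F1 and -41.5 in F2. At position 12722554 of chromosome 10 the authors' deposited table had 31.5 points for F1, -41.3 for F2 and -43.5 for F3, so that F2 and F3 were on one side. No single reversal was tested, since values of single animals were not analysed here.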

How the data were processed

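The values used were 6 lists of cytosines with a signed difference in methylation level, a p-value and a q-value, all calculated by the authors. Per the description that the authors deposited, a site needed a false discovery rate under 1% and at least 20 points of difference. Per the submitters' processing notes the tools were methylKit 0.9.4, Bismark 0.14.5, Trim Galore 0.4.0, bedtools 2.17, SAMtools 1.2 and CASAVA, on the build Rnor_5.0. Their roles, a coverage minimum and the model are not given there. Depth per sample is unknown.

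F2 cytosines at most 1000 bp apart were merged into loci, which took the sign of their mean difference. The same cytosine means equal chromosome, position and strand. 4 comparisons of shares used two-sided Fisher's exact tests, 2 of them adjusted together, with exact Clopper-Pearson 95% intervals. Loci are linked, the loci of different generations overlap in part and each generation is 1 contrast, so p-values are rough. Alternatives changed the merging distance, minimum difference, q and counting of strands. Loci were named by rules: the 10 largest of each direction, the 15 runs with most sites, the 10 largest in all lists, the 10 largest reversals, the mixed loci of 4 or more sites and the 5 widest spans. Members, rules and tests were chosen with earlier results of these data known. No gene was named, because the gene table at hand is of another build. The functions were tested on simulated data. Calculations used SciPy 1.17.1, pandas 2.3.3 and numpy 2.4.6 in Python 3.11.15, and plots matplotlib 3.10.9.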

Additional observations from a re-analysis of the deposited data

Results flagged for a closer look

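The share of loci with more than 1 listed cytosine differed between generations under the same contrast: it was 6.37 points higher in F2 than in F1 (Fisher's exact test over loci, adjusted p = 0.00093). It did not hold away from the lists' minimum: with at least 25 points the difference was 2.48 (Fisher's exact test, adjusted p = 0.51), and with at least 30 points it was -0.58 (adjusted p = 0.85). Loci with a cytosine listed in both F1 and F2 entered both sides of the test, so its p-value is rough. Depth and the number of cytosines tested are unknown for both generations, and their part in the result was not tested.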

How the results depend on the processing

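The lists hold group differences only, so no library could be left out and depth limits could not be set. No paired analysis was possible because the lists carry no values of single samples. The results below were recomputed under merging at 100 or 10000 bp, minimum differences of 25 or 30 points, q of at most 1e-5 and strands of a CpG as 1 site. The hypermethylated share of F2 loci moved outside its interval only at 30 points, to 49.3%. F2 minus F1 in loci with more than 1 site was 2.48 points at a minimum of 25 and turned to -0.58 at 30. F2 minus F3 turned to 3.31 points with strands counted as 1 site. The difference between loci listed again and loci of F2 alone was -5.34 points at 25, -2.96 at 30 and -4.47 at q of at most 1e-5, none past the test. The direction shared with F1 against F3 differed by 5.91 points when each cytosine was counted, and passed. Cytosines of a locus are not independent, so that pass cannot be taken at its p-value. The difference passed under none of the other settings. At a minimum of 30 points the shares nearly met, at 96.4% of 55 loci for F1 and 95.2% of 62 for F3. Fewer loci enter at higher minimums (351 of 831 at 30 points), and the cause of these changes was not tested. Taking a locus's direction from its largest difference left both results it touches as they were.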

Other observations

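Neighbouring runs of F2 did not always point one way. Runs of 5 or more cytosines at most 1 Mb apart formed 4 neighbouring pairs, and 3 of these had opposite directions. All 22 runs were split into 11 hypermethylated and 11 hypomethylated ones, and 4 pairs are too few to show a departure from that split. On chromosome 16 the run from 72824667 to 72824769 averaged 28.6 points and the run from 72850435 to 72850562 averaged -24.1, at a distance of 25666 bp. F1 listed 7 cytosines in the first of these and none in the second. On chromosome 19 the runs starting at 60406112 and 60868079 averaged 26.4 and -25.2 points, 461849 bp apart, and on chromosome 16 the runs starting at 13841738 and 14737135 averaged -22.0 and 32.8, 895299 bp apart. The pair with one direction was on chromosome 5, where the runs starting at 147683213 and 147737111 averaged -36.9 and -24.2 points, 53791 bp apart. These pairs were chosen after the values were seen.

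Of the 22 runs, 10 had all cytosines on one strand, among them both runs with regular spacing. This was so for 103 of all 200 loci with more than 1 cytosine, so it was not particular to runs. Whether the other strand was covered there is not known.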
